A study of Mus musculus with 15 samples.

Results

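The genes described here are 5 members of the Siglec family (Siglech, Siglece, Siglec1, Cd22 and Cd33), chosen by name from 36528 gene IDs and measured by RNA sequencing in microglia of the mouse cortex. All 5 had a row in every sample and all 5 passed the filter on low counts that left 13994 genes for testing. The cells were sorted by green fluorescent protein expressed from Cx3cr1, a chemokine receptor gene typical of microglia, so every animal of both groups carried that reporter. The tested mice were PS2APP, which carry mutant human presenilin 2 and amyloid precursor protein transgenes and form amyloid plaques, with 9 samples, 4 at 14 months of age and 5 at 15 months. The non-Tg wild type mice gave 6 samples, 2 at 14 months and 4 at 15 months. The labels name neither the promoters that drive the transgenes nor a number of animals per sample. Nor is each sample said to be a separate mouse, so the p-values below measure the spread between these samples, which may in part be technical.

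Siglecs are cell surface lectins of the immunoglobulin family that bind sialic acid, the sugar that caps many glycans on the body's own cells. Most of them carry inhibitory tyrosine motifs (ITIMs) in the cytoplasmic tail, which Src family kinases phosphorylate and which then recruit the phosphatases encoded by Ptpn6 (SHP-1) and Ptpn11 (SHP-2). Others lack such a tail motif and pair with the activating adaptor DAP12, encoded by Tyrobp. In the brain they are studied mainly as receptors through which microglia read sialylated surfaces of neurons and of protein deposits, and human CD33 lies in a locus associated with the risk of Alzheimer's disease.

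Siglece, Cd22, Cd33 and Siglech lie on chromosome 7 and Siglec1 on chromosome 2 (RefSeq annotation of GRCm38.p6). Siglece, at chr7:43648882-43672044, and Cd33, at chr7:43527399-43537424, share a stretch of the chromosome with Siglecf, at chr7:43351341-43359475, and Siglecg, at chr7:43408192-43418349. Cd22, at chr7:30865404-30880342, stands beside Mag, at chr7:30899175-30914922. Siglech, at chr7:55768154-55779448, stands apart from these, as does Siglec1, at chr2:131067801-131086778. The promoters of Siglece, Cd22 and Siglecf are shown because these are the Siglec genes with the clearest differences between the genotypes in either direction. Each is the 250 bases before a transcript start in the RefSeq table for GRCm38.p6, printed 5′ to 3′ on the gene's own strand. The Siglece and Cd22 windows, and that of Cd33, lie inside the gene spans given above. Cd22 has 4 curated transcripts, and only the window shown was searched for it. Starts nearer the outer ends of those spans were not searched. Capitals mark the letters GAGGAA, the core that the myeloid factor PU.1 binds, or its reverse complement TTCCTC.
Siglece, minus strand, chr7:43660162-43660411: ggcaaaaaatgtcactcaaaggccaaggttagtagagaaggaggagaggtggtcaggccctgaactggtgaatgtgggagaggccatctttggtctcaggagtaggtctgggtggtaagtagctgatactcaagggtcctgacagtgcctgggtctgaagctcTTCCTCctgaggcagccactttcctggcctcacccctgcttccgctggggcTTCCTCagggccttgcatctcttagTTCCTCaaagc
Cd22, minus strand, chr7:30879029-30879278: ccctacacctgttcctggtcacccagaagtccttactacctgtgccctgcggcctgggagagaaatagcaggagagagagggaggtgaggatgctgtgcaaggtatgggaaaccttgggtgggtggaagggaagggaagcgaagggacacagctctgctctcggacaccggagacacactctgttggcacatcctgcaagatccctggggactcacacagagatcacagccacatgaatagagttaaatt
Siglecf, plus strand, chr7:43351091-43351340: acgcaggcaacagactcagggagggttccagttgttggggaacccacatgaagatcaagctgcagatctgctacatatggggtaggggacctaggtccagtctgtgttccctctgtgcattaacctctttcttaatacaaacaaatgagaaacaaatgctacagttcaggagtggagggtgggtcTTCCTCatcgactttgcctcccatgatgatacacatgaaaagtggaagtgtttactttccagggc
The Siglece window holds the PU.1 core 3 times, each as the reverse complement, at 87 to 82, 36 to 31 and 11 to 6 bases before the start. The Siglecf window holds it once, 65 to 60 bases before the start, and the Cd22 window holds no match. Of 32851 mouse promoter windows of the same length, 23.3% hold the core on either strand, so a match is common. Also searched on both strands were the interferon-stimulated response element (in 2.98% of windows), CACGTG, the E-box of the MITF and TFEB family (6.02%), and TGANTCA, bound by AP-1 (6.75%). No window of these 3 genes matched any of them. The Siglech window matched CACGTG 56 to 51 bases before its start, and the Cd33 window matched GAGGAA 226 to 221 bases before its start. These matches describe letters, not binding.

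In levels per gene length, Siglech was the highest of the 5 and Siglec1 the lowest. The unit is nRPKM, the authors' reads scaled to gene length and depth, adjusted by a size factor. Siglech, which in mice marks microglia and plasmacytoid dendritic cells and signals through DAP12, averaged 133 ± 13.9 nRPKM in PS2APP and 153 ± 22.0 nRPKM in non-Tg samples (SD, n = 9 and n = 6 here and below). Cd33 averaged 69.9 ± 11.8 nRPKM in PS2APP and 73.8 ± 15.3 nRPKM in non-Tg samples. Siglece, an inhibitory Siglec of neutrophils, monocytes and microglia, averaged 15.8 ± 3.59 nRPKM in PS2APP and 27.1 ± 4.38 nRPKM in non-Tg samples. These 3 kept one order, Siglech above Cd33 above Siglece, in 15 of 15 samples. Cd22, the inhibitory co-receptor of B cells, averaged 1.64 ± 0.495 nRPKM in PS2APP and 0.775 ± 0.343 nRPKM in non-Tg samples. Siglec1, the sialoadhesin of tissue macrophages, averaged 0.559 ± 0.410 nRPKM in PS2APP and 0.364 ± 0.276 nRPKM in non-Tg samples. Cd22 was above Siglec1 in 13 of 15 samples, 8 of 9 PS2APP and 5 of 6 non-Tg, and the ranges of these neighbours overlapped in both genotypes. Of the summed nRPKM of the 5 genes, Siglech made up between 52.8% and 65.7% in a sample, Cd33 between 24.3% and 37.8%, and Siglece between 4.62% and 14.4%. Cd22 made up at most 1.14% and Siglec1 at most 0.575%.

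**Figure D1:**
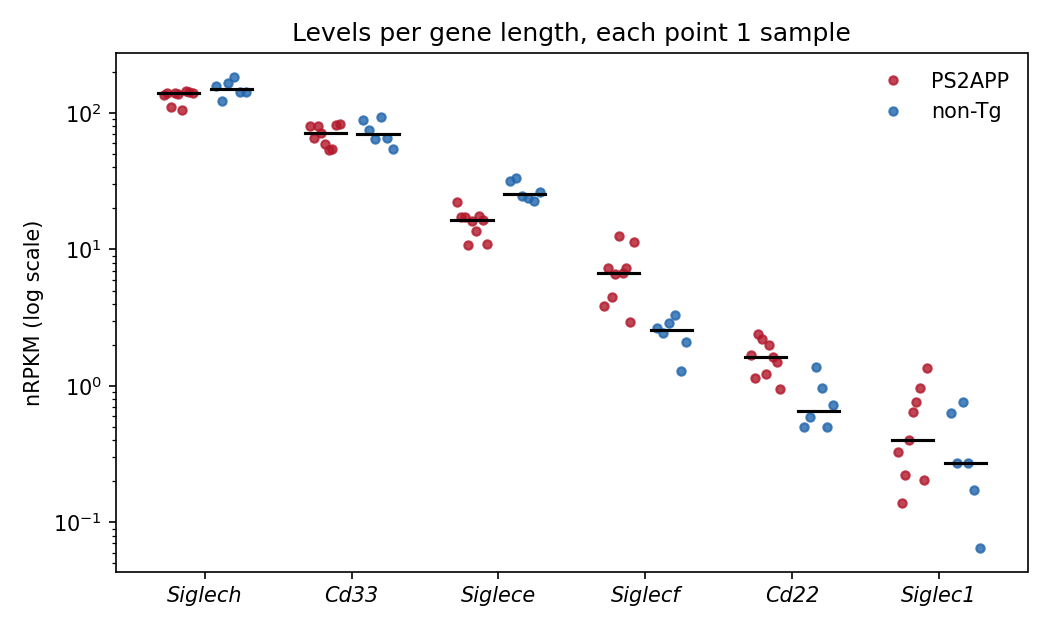
Level per gene length (nRPKM, log scale) of the 5 genes and of Siglecf, 1 point per sample, with PS2APP left of non-Tg for each gene and the group median as a black line. Siglech lies between 106 and 144 nRPKM in PS2APP and between 122 and 185 nRPKM in non-Tg samples, and Siglec1 lies between 0.139 and 1.36 nRPKM in PS2APP and between 0.0645 and 0.768 nRPKM in non-Tg samples.

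The comparison of PS2APP with non-Tg microglia asks which genes differ where amyloid plaques have formed. Across all 13994 genes, edgeR's quasi-likelihood test with age as a term called 165 (1.18%) at a Benjamini-Hochberg adjusted p under 0.05, of which 134 (0.958%) were higher and 31 (0.222%) lower in PS2APP. Of the 5 Siglec genes, 1 was called, and it was lower. Their median log2 fold change was −0.05, beside −0.02 over all genes tested. The log2 fold changes spread in both directions, between −0.77 for Siglece and 1.04 for Cd22, so the 5 did not move together.

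Siglece fell in PS2APP microglia. Its level in CPM, counts relative to the TMM-scaled library size, had a lowest value of 84.0, a median of 129 and a highest value of 174 CPM in PS2APP samples, against 176, 199 and 257 CPM in non-Tg samples. All 9 PS2APP samples lay below all 6 non-Tg samples, a separation in that direction that 0.0643% of the genes tested had. The highest PS2APP sample (sample 1, 174 CPM) and the lowest non-Tg sample (sample 12, 176 CPM) were close to each other. The mean was 124 ± 28.4 CPM in PS2APP and 211 ± 34.1 CPM in non-Tg samples. That was a log2 fold change of −0.77 ± 0.16 (SE), 1.71-fold lower, with a 95% interval of −1.11 to −0.43 and an edgeR adjusted p of 0.0171. It had 413 to 1552 reads per sample. The direction was the same at each age: Siglece averaged 115 ± 24.3 CPM in 4 PS2APP samples and 231 ± 37.1 CPM in 2 non-Tg samples at 14 months, and 130 ± 32.2 CPM in 5 PS2APP samples and 201 ± 32.8 CPM in 4 non-Tg samples at 15 months. Neither age alone reached the threshold in edgeR (log2 fold change −0.97, adjusted p = 0.174 at 14 months; −0.64, adjusted p = 0.227 at 15 months). Without non-Tg sample 5, the highest of all, the log2 fold change was −0.68 with an edgeR adjusted p of 0.0700.

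Some markers of other cells, and those of microglia themselves, also differed between the genotypes. In sorted bulk samples, fewer cells of a type and less RNA per cell cannot be told apart. The 8 neutrophil markers summed to between 0 and 8.72 CPM in PS2APP samples and to between 0 and 81.5 CPM in non-Tg samples, and none of the 8 passed the count filter. The non-Tg samples with the most neutrophil reads, 9, 11 and 13, had 193, 187 and 205 CPM of Siglece. The highest Siglece values, 257 CPM in non-Tg sample 5 and 249 CPM in non-Tg sample 2, came with 2.49 and 2.94 CPM of neutrophil markers, and non-Tg sample 12, with no neutrophil read, had 176 CPM. The 10 neuron markers summed to 64.1 to 233 CPM in PS2APP and 241 to 456 CPM in non-Tg samples, with no overlap, and the mean log2 CPM of the 9 that were tested was lower in PS2APP by a difference of −1.11 (exact two-sided permutation test, adjusted p = 0.00539 over the marker lists). The 8 markers that define microglia were lower too, at 23676 to 35224 CPM in PS2APP and 29914 to 39309 CPM in non-Tg samples (difference in mean log2 CPM −0.26, exact permutation test, adjusted p = 0.0162). With the neuron score as a covariate the Siglece log2 fold change was −0.63 and Siglece was not called. That edgeR fit called 14 genes higher and 0 lower over all genes, beside 134 and 31 without the score. With the microglia score the Siglece log2 fold change was −0.58 (edgeR adjusted p = 0.509), and 73 genes were called higher and 3 lower. The neuron score used as the covariate overlapped between the genotypes only in PS2APP sample 4 (3.28) and non-Tg sample 13 (3.26). Fits with that score, here and below, therefore separate the neuron markers from genotype poorly. The part of these markers in the Siglece difference was not tested. In its RefSeq span, Siglece also overlaps the ends of Ceacam18 and Ctu1 on the opposite strand. In the GENCODE annotation of the same build it spans chr7:43651070-43660161 and overlaps neither. The annotation used for counting, and whether counting used strand, are not given in the sources. Those neighbours had 244 and 568 reads over all 15 samples, against 5958 reads of Siglece in PS2APP and 7577 in non-Tg samples.

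**Figure D2:**
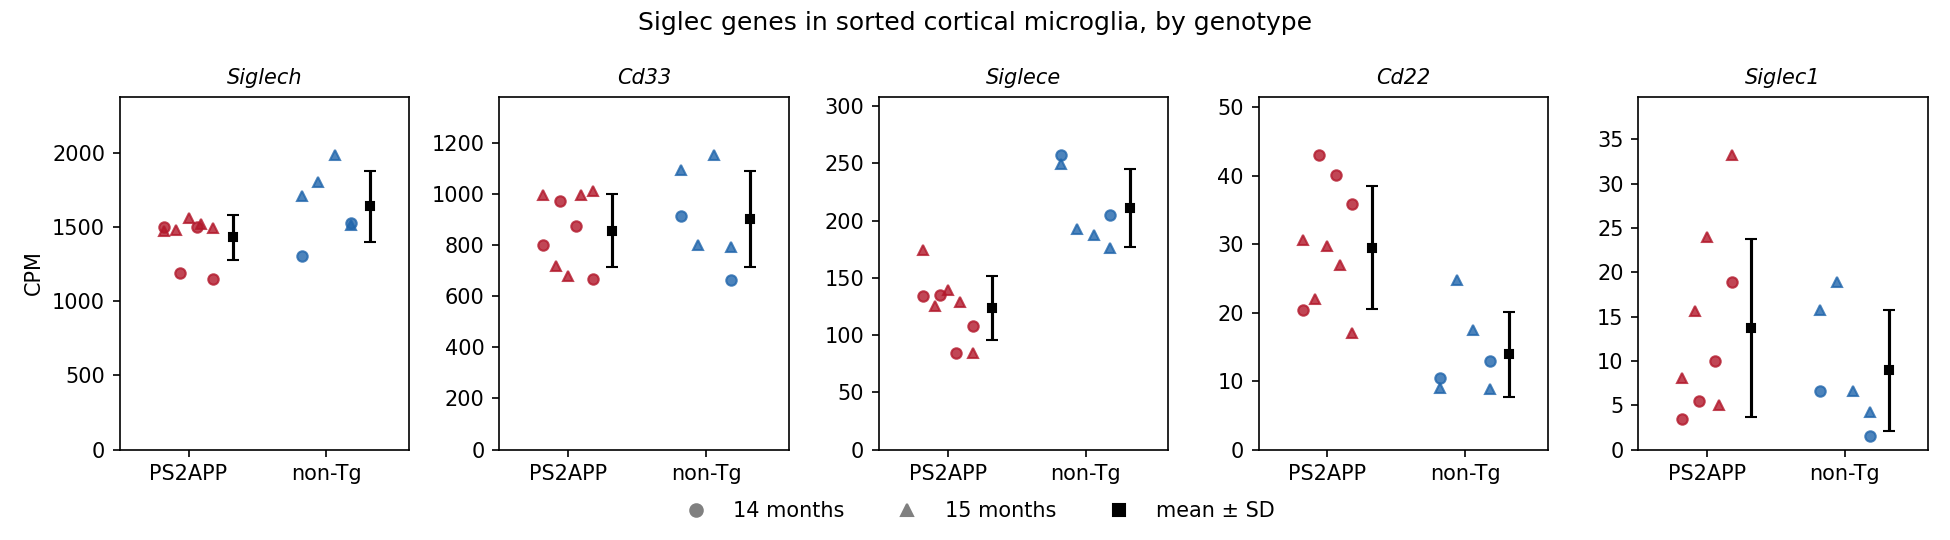
Expression (CPM) of each of the 5 Siglec genes in every sample, PS2APP left of non-Tg, with circles for 14 months, triangles for 15 months, and black squares and bars for the mean ± SD. Siglece separates the genotypes (84.0 to 174 CPM in PS2APP, 176 to 257 CPM in non-Tg), Cd22 is shifted upward in PS2APP with overlap, and Siglech, Cd33 and Siglec1 overlap widely.

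Cd22 was higher in PS2APP samples but missed the threshold. Its lowest, median and highest values were 17.0, 29.7 and 43.0 CPM in PS2APP, against 8.83, 11.7 and 24.8 CPM in non-Tg samples. All 9 PS2APP samples lay above the non-Tg median and 6 of 9 above the highest non-Tg sample, which was sample 9. The mean was 29.5 ± 8.94 CPM in PS2APP and 13.9 ± 6.23 CPM in non-Tg samples, a log2 fold change of 1.04 ± 0.29 (95% interval 0.44 to 1.63), 2.05-fold, with an unadjusted edgeR p of 0.00159 and an adjusted p of 0.0929. The call turned on choices of processing: Cd22 passed the threshold with DESeq2 (log2 fold change 1.03, adjusted p = 0.0138) and in edgeR without non-Tg sample 9 (1.29, adjusted p = 0.0175). It had 38 to 299 reads per sample.

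The B cell genes Ms4a1 and Pax5 were at or near 0 in these libraries. They had no read in any of the 9 PS2APP samples, and their summed reads in the 6 non-Tg samples were 0, 0, 1, 1, 0 and 7 in the order of the sample numbers. The summed CPM of the 9 B cell markers was 16.2 to 31.1 in PS2APP and 19.3 to 41.2 in non-Tg samples. Most of that sum came from Cd79b, part of the B cell receptor, at 10.1 ± 4.49 CPM in PS2APP and 14.7 ± 6.87 CPM in non-Tg samples, and from the complement receptor Cr2, at 12.4 ± 3.90 CPM in PS2APP and 15.0 ± 4.32 CPM in non-Tg samples. Only these 2 of the 9 passed the count filter, and the score, which rests on them, differed by −0.39 (exact permutation test, adjusted p = 0.240). The part of B cells in the Cd22 difference was not tested. Within the libraries, Cd22 stood at 6.59 to 20.7 nRPKM per 100 nRPKM of Siglece in PS2APP (median 9.08) and at 1.57 to 5.58 in non-Tg samples (median 2.46). These ratios did not overlap, and since the pair was chosen for its opposite differences they are a description.

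Siglech and Cd33, the highest of the 5 per gene length, did not pass the test. Siglech had 1152, 1495 and 1561 CPM as lowest, median and highest values in PS2APP and 1304, 1618 and 1985 CPM in non-Tg samples. All 9 PS2APP samples lay below the non-Tg median, but only 2 lay below the lowest non-Tg sample. The means were 1431 ± 150 CPM in PS2APP and 1641 ± 242 CPM in non-Tg samples, a log2 fold change of −0.17 ± 0.12 (95% interval −0.41 to 0.07, edgeR adjusted p = 0.616). Cd33 had 667, 878 and 1012 CPM in PS2APP and 666, 858 and 1153 CPM in non-Tg samples. Its genotype ranges nearly coincided, with means of 858 ± 144 CPM in PS2APP and 904 ± 189 CPM in non-Tg samples and a log2 fold change of −0.05 ± 0.15 (95% interval −0.36 to 0.26, edgeR adjusted p = 0.938). Each had at least 3172 reads in every sample.

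Siglec1 varied more among samples of 1 genotype than between genotypes. It lacks ITIMs, and interferon is known to induce it in macrophages. Its lowest, median and highest values were 3.40, 9.94 and 33.2 CPM in PS2APP and 1.58, 6.64 and 18.9 CPM in non-Tg samples. The highest PS2APP samples were 15, 10 and 8 (33.2, 24.0 and 18.9 CPM), and 3 of 9 PS2APP samples lay below the non-Tg median. The means were 13.7 ± 10.1 CPM in PS2APP and 8.95 ± 6.83 CPM in non-Tg samples, a log2 fold change of 0.81 ± 0.49 (95% interval −0.20 to 1.83, edgeR adjusted p = 0.550). It had 12 to 162 reads per sample. With the neuron score as a covariate the estimate turned negative, at −0.45 (edgeR adjusted p of 1). The 12 markers of border-associated macrophages, which use Siglec1 at high level, summed to 297 to 527 CPM in PS2APP and 213 to 650 CPM in non-Tg samples (difference in score 0.30, exact permutation test, adjusted p = 0.642). On average most of that sum came from Stab1, at 263 ± 76.5 CPM in PS2APP and 339 ± 102 CPM in non-Tg samples. PS2APP sample 15 combined 33.2 CPM of Siglec1 with 483 CPM of those markers, while non-Tg sample 11, with the most at 650 CPM, had 6.63 CPM of Siglec1. Over all samples of a genotype, Pearson's r of Siglec1 with the score was 0.44 in PS2APP and 0.50 in non-Tg (exact permutation test, adjusted p = 0.59 for each). The part of such cells in the Siglec1 values was not tested. Of 30 genes induced by type I interferon, 7 were called higher and none lower in PS2APP, with a median log2 fold change of 1.23, beside 0.958% called higher and 0.222% called lower over all genes. Pearson's r of Siglec1 with the score of these genes was 0.32 in PS2APP and 0.64 in non-Tg (exact permutation test, adjusted p = 0.746 and 0.59). Without the 2 samples farthest from the median score, r was 0.19 in PS2APP and −0.26 in non-Tg. The part of interferon in the Siglec1 values was not tested.

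**Figure D3:**
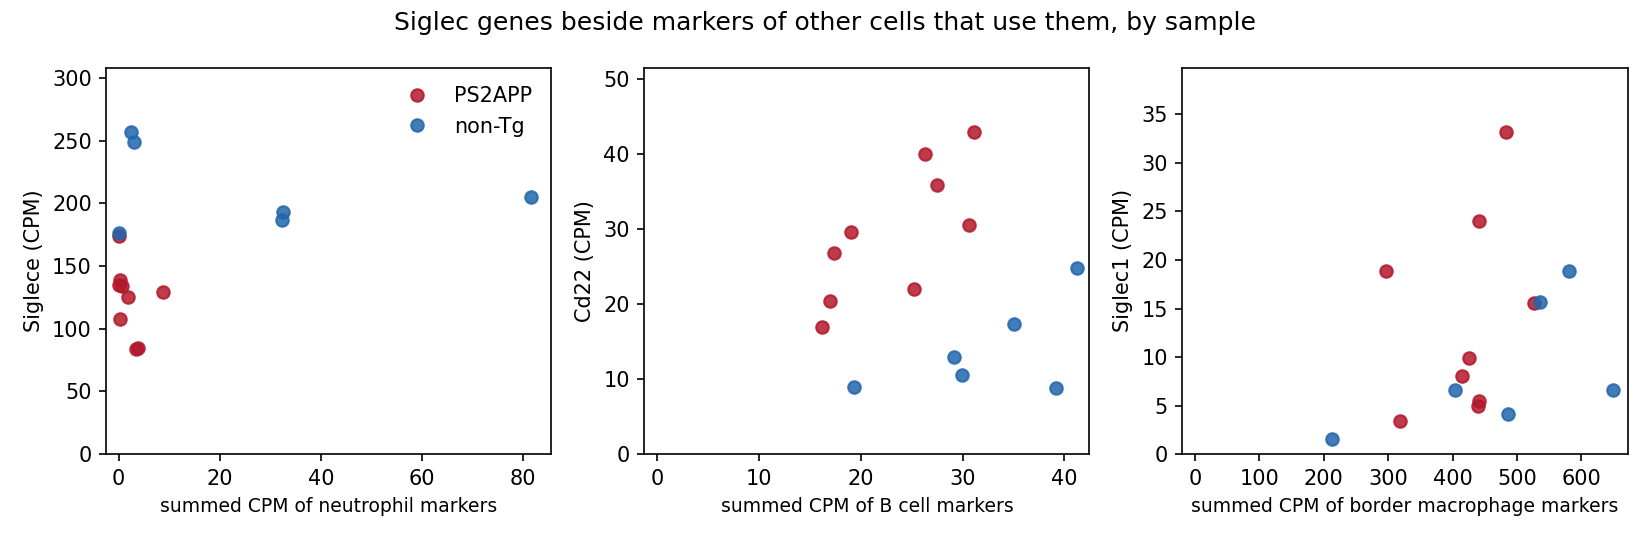
Siglece, Cd22 and Siglec1 (CPM, vertical axes) against the summed CPM of markers of neutrophils, B cells and border-associated macrophages (horizontal axes), 1 point per sample, red for PS2APP and blue for non-Tg. Non-Tg samples reach 81.5 CPM of neutrophil markers, and the highest Siglece values, 257 and 249 CPM, stand at 2.49 and 2.94 CPM.

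No age effect and no interaction of age with genotype passed the test for any of the 5 genes. Over all genes edgeR called 0 for age (1112 at an unadjusted p under 0.05) and 0 for the interaction (1038), a background of 0% for both. Siglec1 had the largest age estimate of the 5, a log2 fold change of 1.09 ± 0.49 at 15 over 14 months (edgeR adjusted p = 0.619). It averaged 17.2 ± 11.6 CPM in 5 PS2APP samples at 15 months and 9.42 ± 6.86 CPM in 4 at 14 months, and 11.4 ± 7.08 CPM in 4 non-Tg samples at 15 months and 4.12 ± 3.58 CPM in 2 at 14 months. For the others the age estimate was 0.22 (Siglech), 0.03 (Siglece), −0.18 (Cd22) and 0.16 (Cd33). The interaction estimate of Cd22 was −0.82 ± 0.56 (edgeR adjusted p = 0.754): it averaged 34.9 ± 10.1 CPM in PS2APP and 11.7 ± 1.70 CPM in non-Tg samples at 14 months, and 25.3 ± 5.72 CPM in PS2APP and 15.0 ± 7.68 CPM in non-Tg samples at 15 months.

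Across samples, after genotype and age were taken out, no pair of the 5 genes varied closely together: Pearson's r of the residual log2 CPM lay between −0.28 and 0.23 over 15 samples. The genes whose residuals were most like those of each were drawn from 12199 tested genes (average log2 CPM 2 or more), and the points share library depth and cell purity. For Siglech they were Ccdc88a (r = 0.87), Resf1 (0.86) and Cd160 (0.85), and for Siglece they were Ssh2 (0.85), Spata5 (0.83) and Il6ra (0.83). For Cd22 they were Ube2g2 (0.93), Nat9 (0.91) and Fkbp2 (0.89), for Cd33 they were Cul9 (0.88), Dglucy (0.86) and 2810006K23Rik (0.84), and for Siglec1 they were Tymp (0.90), Aldh3a2 (0.85) and Guk1 (0.83). With so many candidates, values of this height are given as a description only. Of 40 relations of the 5 genes to scores of plaque-associated, homeostatic, interferon-induced and border-associated macrophage genes within a genotype, 0 passed adjustment by Pearson's r (lowest adjusted p = 0.59, exact permutation test of the pairings) or by Spearman's rho (lowest adjusted p = 0.514). By Pearson's r 2 had an unadjusted p under 0.05 and by Spearman's rho 1 did, each with the homeostatic score. In the 6 non-Tg samples, Siglech had a rho of 0.94 (exact permutation p = 0.0167) and an r of 0.60 (p = 0.182), with r = 0.99 without the 2 samples farthest from the median. The other 2 were in the 9 PS2APP samples. For Siglece, Pearson's r was 0.70 (exact permutation p = 0.0355) and Spearman's rho 0.65 (p = 0.0666), and r was 0.15 without the 2 samples farthest from the median, so it rested on those samples. For Cd22, r was 0.70 (exact permutation p = 0.033) and rho 0.55 (p = 0.133), with r = 0.62 without the 2 farthest samples.

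Among the other Siglec genes, Siglecf rose in PS2APP microglia, with a larger log2 fold change than any of the 5. Siglecf is an inhibitory Siglec best known from eosinophils and alveolar macrophages. Its lowest, median and highest values were 28.9, 67.1 and 123 CPM in PS2APP and 12.5, 25.1 and 32.5 CPM in non-Tg samples. All PS2APP samples but sample 14 lay above every non-Tg sample. The means were 69.1 ± 31.6 CPM in PS2APP and 24.1 ± 6.96 CPM in non-Tg samples, a log2 fold change of 1.55 ± 0.29, 2.92-fold, with an edgeR adjusted p of 0.00655. In nRPKM it stood between Siglece and Cd22 in every sample but 1 PS2APP sample, where it exceeded Siglece. The eosinophil granule genes Epx and Prg2 had 4 reads or fewer in any sample. Their reads, 7 and 1, were all in PS2APP samples, with 0 in non-Tg samples. The 6 eosinophil and mast cell markers other than Siglecf summed to 2.49 to 5.79 CPM in PS2APP and 0.207 to 5.55 CPM in non-Tg samples. Only Ccr3 of the 6 passed the count filter, and the score, which rests on it, differed by 0.80, in the same direction as Siglecf (exact permutation test, adjusted p = 0.260). The mast cell genes Cpa3 and Kit had 14 and 36 reads in the PS2APP samples together, against 0 and 7 in the non-Tg samples. The part of such cells in the Siglecf difference was not tested. Siglecf was called in each fit that left out 1 sample, but not at 14 months alone (log2 fold change 1.52, edgeR adjusted p = 0.0546), at 15 months alone (1.58, 0.143), with the neuron score (1.30, 1) or with the microglia score (1.32, 0.395). Over all 33 alternatives its log2 fold change was 1.15 to 1.73.

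The remaining family members were at low levels. Mag, the Siglec of myelinating oligodendrocytes, lay between 4.25 and 23.2 CPM in PS2APP and between 4.88 and 12.4 CPM in non-Tg samples (log2 fold change 0.28 ± 0.37, edgeR adjusted p = 0.845). Siglecg, an inhibitory Siglec of B cells, averaged 2.75 ± 1.58 CPM in PS2APP and 4.61 ± 3.97 CPM in non-Tg samples (−0.59 ± 0.68, edgeR adjusted p = 0.806). The order of the genotypes was opposite at the 2 ages, at 1.31 to 5.76 CPM in PS2APP and 0.554 to 0.924 CPM in non-Tg samples at 14 months, and at 1.25 to 3.76 CPM in PS2APP and 3.26 to 10.8 CPM in non-Tg samples at 15 months. That interaction missed the threshold (edgeR unadjusted p = 0.00208, adjusted p = 0.572) and rested on 2 to 66 reads per sample. Siglec15, with 2 reads in all, was not tested.

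Sialyltransferases build the sialylated glycans that Siglecs bind, and 1 of them rose in PS2APP microglia. Of 20 sialyltransferases listed, 13 were tested, 1 was called higher and none lower, with a median log2 fold change of 0.21. The shares over all genes tested were 0.958% called higher and 0.222% called lower. The sialyltransferase called was St8sia6, which adds α2,8-linked sialic acid and whose products are known to be bound by Siglec-E in mice. It had 154, 244 and 370 CPM as lowest, median and highest values in PS2APP and 38.9, 83.7 and 140 CPM in non-Tg samples. All 9 PS2APP samples lay above all 6 non-Tg samples, a separation that 0.572% of genes had in that direction. The means were 250 ± 70.9 CPM in PS2APP and 83.5 ± 39.2 CPM in non-Tg samples, a log2 fold change of 1.57 ± 0.27, 2.96-fold, with an edgeR adjusted p of 0.00253. Leaving out any 1 of the 15 samples kept its call. It was not called at 14 months alone (log2 fold change 1.92, edgeR adjusted p = 0.120) or with the neuron score (1.33, 1), and its log2 fold change was 1.27 to 2.09 over all 33 alternatives. St3gal6, which adds α2,3-linked sialic acid, averaged 383 ± 47.2 CPM in PS2APP and 505 ± 89.4 CPM in non-Tg samples (−0.41 ± 0.13, edgeR adjusted p = 0.162), and 8 of 9 PS2APP samples lay below the lowest non-Tg sample. St8sia4, a polysialyltransferase, averaged 68.7 ± 25.8 CPM in PS2APP and 41.4 ± 10.4 CPM in non-Tg samples (0.72 ± 0.28, edgeR adjusted p = 0.276).

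**Figure D4:**
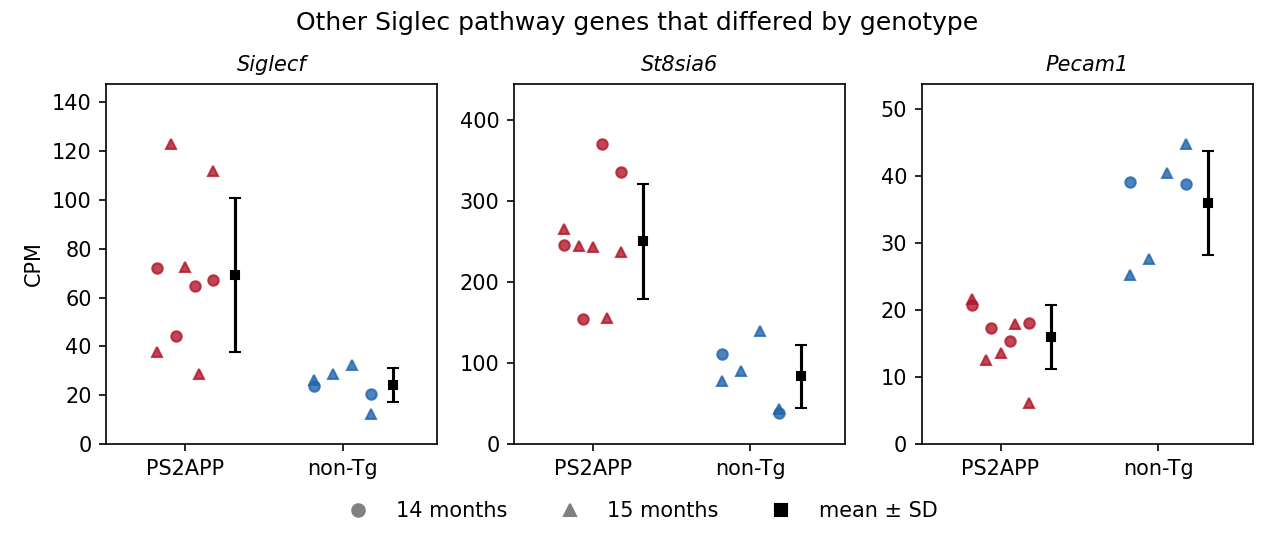
Expression (CPM) of Siglecf, St8sia6 and Pecam1 in every sample, PS2APP left of non-Tg, with circles for 14 months, triangles for 15 months, and black squares and bars for the mean ± SD. St8sia6 (154 to 370 CPM in PS2APP, 38.9 to 140 CPM in non-Tg) and Pecam1 (6.14 to 21.7 CPM in PS2APP, 25.2 to 44.8 CPM in non-Tg) do not overlap between the genotypes.

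Among 8 sialylated surface proteins listed as possible counter-receptors, 5 were tested, none was called higher and 1 lower, with a median log2 fold change of −0.46. Over all genes tested, 0.958% were called higher and 0.222% lower. The counter-receptor gene called was Pecam1, a sialylated adhesion molecule of endothelium and leukocytes that carries ITIMs of its own. It had 6.14, 17.4 and 21.7 CPM in PS2APP as lowest, median and highest values and 25.2, 38.9 and 44.8 CPM in non-Tg samples. The genotypes did not overlap, a separation in that direction that 0.0643% of the genes tested had. The log2 fold change was −1.21 ± 0.24, 2.31-fold lower, with an edgeR adjusted p of 0.0107. It was called in each fit without 1 sample, but not at 14 months alone (log2 fold change −1.08, edgeR adjusted p = 0.132), at 15 months alone (−1.28, 0.172), without the 3 libraries low in Xist (−1.19, 0.0972), with the neuron score (−0.94, 1) or with the microglia score (−1.02, 0.265). Selplg, the selectin ligand PSGL-1, averaged 1714 ± 276 CPM in PS2APP and 2431 ± 566 CPM in non-Tg samples (−0.46 ± 0.14, edgeR adjusted p = 0.128), and 7 of 9 PS2APP samples lay below all non-Tg samples. Ptprc, the CD45 phosphatase and a known ligand of CD22, averaged 828 ± 270 CPM in PS2APP and 547 ± 150 CPM in non-Tg samples (0.59 ± 0.21, edgeR adjusted p = 0.222).

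Of 14 genes that carry Siglec signals inside the cell, 14 were tested and none was called, with a median log2 fold change of −0.17. Over all genes tested, 1.18% were called in either direction, so for lists this short, here and below, none called is near that share. Tyrobp, the DAP12 adaptor of Siglech, averaged 1202 ± 260 CPM in PS2APP and 875 ± 335 CPM in non-Tg samples (0.52 ± 0.20, edgeR adjusted p = 0.266), and all 9 PS2APP samples lay above the non-Tg median. Lyn, a Src family kinase, had an estimate of −0.29 ± 0.14 (edgeR adjusted p = 0.428). Of 8 genes for sialic acid synthesis and activation, 6 were tested and none was called, with a median log2 fold change of −0.07. Npl, the lyase that breaks down free sialic acid, had an estimate of −0.93 ± 0.32 (edgeR adjusted p = 0.205). Its highest non-Tg value was 212 CPM beside a non-Tg median of 54.1 CPM, and the estimate was −0.49 without non-Tg sample 11 and −0.04 at 14 months alone. Renbp, which interconverts the amino sugars upstream of it, had 0.47 ± 0.20 (edgeR adjusted p = 0.351). Of 7 genes for removal of sialic acid, 5 were tested and none was called, with a median of 0.12. The lysosomal sialidase Neu1 stood at −0.09 ± 0.26 (edgeR adjusted p = 0.939) and its partner Ctsa, the protective protein, at 0.20 ± 0.17 (edgeR adjusted p = 0.717).

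**Figure D5:**
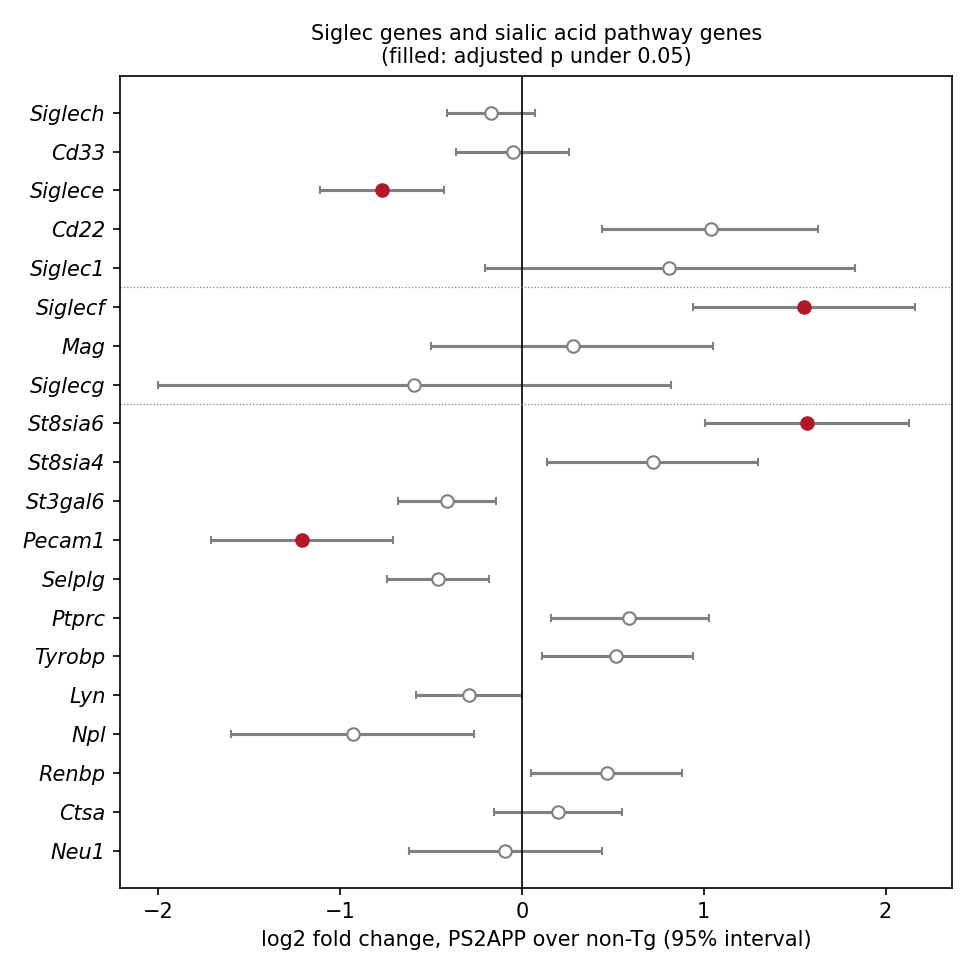
Log2 fold change of PS2APP over non-Tg (horizontal axis, with 95% intervals) for the 5 Siglec genes, other Siglec genes below the first dotted line, and sialic acid and signalling genes below the next, with filled points for an edgeR adjusted p under 0.05. Siglece (−0.77) and Pecam1 (−1.21) are filled on the lower side, and Siglecf (1.55) and St8sia6 (1.57) on the higher side.

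Total counts per sample ranged between 3664742 and 8455237, with a median of 5867848. No pair of samples of 1 group agreed within sampling noise over 51 pairs, so none was treated as 1 library deposited again. Immediate early genes were high in 4 libraries (PS2APP 1 and 4, non-Tg 9 and 13), and Xist was low in 3 (PS2APP 14, non-Tg 12 and 13). Without the 4 libraries the Siglece log2 fold change was −0.92 (edgeR adjusted p = 0.0229), and without the 3 it was −0.85 (adjusted p = 0.0683).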

How the data were processed

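Per the labels' protocols, RNA of the sorted cortical microglia was purified with an RNeasy micro kit and its quality read on a Bioanalyzer. The submitters' processing notes name GSNAP and GRCm38. No source used here states the annotation, the library kit or whether counting used strand. Per the file headers, the deposited count is the number of reads aligning uniquely to a gene model, and the deposited RPKM (nRPKM) is scaled by gene length and a size factor.

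Of 36528 gene IDs, 31049 matched a symbol in the RefSeq table of GRCm38.p6, with 97.2% to 98.2% of reads. The counts went into edgeR 4.0.16 (R 4.3.3), with the filterByExpr filter, TMM scaling, a quasi-likelihood model of age and genotype over all 15 samples, and Benjamini-Hochberg adjustment over all genes tested, called at an adjusted p under 0.05. Standard errors were derived from the fold change and its F statistic. Levels are CPM. The step was tested on simulated counts. A score is the mean log2 CPM (prior count 2) of a list's tested genes, compared by an exact permutation test over 5005 splits, adjusted over the marker lists. Alternatives used DESeq2 1.42.0, limma 3.58.1, other scalings, filters, covariates and samples.

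The 5 genes and the gene lists were chosen with earlier results of these data known. Named genes are the 5, the rest of the family, up to 4 genes of each pathway list with the smallest genotype p, the 3 genes most like each of the 5, defining markers and overlapping genes. Some genes that this rule takes are not reported here.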

Additional observations from a re-analysis of the deposited data

How the results depend on the processing

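No paired analysis was run, because the sample numbers run through both genotypes without repeat and so name no pairs. Over 33 alternatives the Siglece log2 fold change stayed negative (−0.97 to −0.58) and was called in 27. Leaving out each sample in turn gave −0.86 to −0.68, called in 14 of 15 fits (edgeR adjusted p 0.00627 to 0.0700, the highest without non-Tg sample 5, at −0.68). It missed the threshold at 14 months (−0.97) and 15 months (−0.64) alone, without the 3 libraries low in Xist (−0.85), with the neuron score (−0.63) and with the microglia score (−0.58), a covariate chosen after seeing the data. Cd22 was called in 6 of 33: DESeq2 (1.03), without non-Tg sample 9 (1.29), no count filter (1.05), limma-voom (1.30), immediate early gene score (1.16) and microglia score (1.82), with 0.92 to 1.29 over samples left out. Cd33 turned positive without non-Tg sample 11 (0.01), at 14 months (0.11), and with the neuron (0.09) or microglia score (0.10), with −0.14 to 0.01 over samples left out. Siglec1 turned negative with the neuron score (−0.45) and was 0.56 to 1.07 over samples left out, and Siglech kept its sign and missed the threshold in all 33 (−0.23 to −0.05). The count of genes called, 165 in edgeR, was 388 with DESeq2 (67.3% of them higher), 648 with no count filter (54.0%), 50 at 14 months (92.0%), 65 at 15 months, 81 without the low Xist libraries, 14 with the neuron score (100%), 76 with the microglia score (96.1%) and 118 to 188 over samples left out. Other reversals, none called, were Mag without the 4 immediate early libraries (−0.40), Siglecg at 14 months (2.25) and with the neuron score (0.15), Ctsa at 15 months (−0.11), and Neu1 at 14 months (0.72), with voom (0.04), with the neuron (0.09) or microglia score (0.60) and over samples left out (−0.27 to 0.10). Without the immediate early libraries the age estimate of Siglece was −0.02 and the interaction of Siglec1 0.45. Over samples left out they were −0.07 to 0.12 and −1.96 to 0.09, and the Cd33 interaction was −0.44 to 0.00. The cause of these changes was not tested, beyond that single-age fits hold fewer samples. Siglec1 (12 to 162 reads per sample) and Siglecg (2 to 66) had few reads.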
